A study of Mus musculus with 12 samples.

Results

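This report covers the mouse FGF ligands, FGF receptors and ERK feedback genes, 41 of the 36047 genes to which the deposited transcripts could be assigned. The set was chosen by gene family, with earlier results of these data known. It holds 22 ligands (with 4 intracellular FGF homologous factors), 5 receptors and 14 feedback genes. The feedback genes belong to the Sprouty, Spred, dual-specificity phosphatase and PEA3 families. RNA came from organoids that cochlear epithelial cells of 5-day-old (stage P5) mice had formed during 7 days of expansion in Matrigel. There were 12 libraries, 3 per condition, and the 3 libraries of a condition came from different animals.

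All animals of the 4 conditions carried the rtTA transactivator from the ROSA26 locus, and all cultures received doxycycline at 0.5 μg/ml. Control animals carried no inducible transgene. FST animals carried a doxycycline-inducible human follistatin transgene, LIN28B animals an inducible human LIN28B transgene at the Col1a1 locus, and FST+LIN28B animals, also called the double transgenic condition here, carried both. The rtTA is not restricted to a cell type, so every cell of a transgenic organoid could express the transgene. EGF, FGF2, the Wnt pathway activator CHIR99021 and the histone deacetylase inhibitor VPA were in the medium of every condition. An FGF ligand, FGF2, was thus supplied from outside in controls too.

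FGF ligands are secreted proteins that bind FGF receptor tyrosine kinases together with heparan sulfate, and the activated receptors signal through RAS, RAF and MEK to the kinase ERK. ERK in turn raises transcription of its own inhibitors, among them the Sprouty and Spred proteins and the phosphatases that remove phosphate from ERK, and of the transcription factors Etv1, Etv4 and Etv5. In the ear, Fgf3, Fgf8 and Fgf10 take part in the induction and early growth of the otic vesicle, Fgf20 in formation of the sensory epithelium, and Fgf8 with Fgfr3 in development of pillar cells. Follistatin is a secreted antagonist of Activins, and LIN28B is an RNA binding protein that blocks maturation of let-7 microRNAs.

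Ligand genes, one receptor gene and a pair of phosphatase genes differed between conditions. The abundant receptors and feedback genes were not called in any comparison, which was also the case for most genes tested. Of the 41 genes, 11 differed among the 4 conditions, namely Fgf1, Fgf3, Fgf4, Fgf8, Fgf10, Fgf15, Fgf16, Fgf20, Fgfr2, Dusp5 and Dusp9. The test was edgeR's quasi-likelihood test on all 12 libraries with Benjamini-Hochberg adjustment over the 18780 genes tested, and a gene was called at an adjusted p under 0.01. Over all genes tested, 5.03% were called in the same test. All 41 genes passed the filter on low counts, the one with fewest reads holding 88 counts over the 12 libraries. The number called was 5 without LIN28B replicate 1 or 2, 6 without control replicate 2 or 3, 7 without control replicate 1 or FST+LIN28B replicate 1, and 16 without FST replicate 2. Fgf3, Fgf15, Fgf16, Fgfr2 and Dusp9 were called in each of these fits.

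The libraries held 42.7 to 65.3 M estimated counts, with the lowest total in FST replicate 2, and that library stood apart from the other FST libraries (lowest correlation of log2 CPM 0.951, against 0.974 to 0.987 within the other conditions). Levels below are TPM, a share of all transcripts that is scaled for length and so can be compared between genes, and fold changes are log2 ratios of TMM-normalized counts with their standard error (SE). Epithelial markers summed to 1510 to 1830 TPM in all libraries. Cochlear supporting cell markers summed to 982 to 1460 TPM in the 6 libraries without the LIN28B transgene and to 470 to 702 in the 6 with it, and 4 of 10 markers were called lower and 1 higher in LIN28B averaged over FST (7.41% of all genes called). Against control, LIN28B called 3 of them lower and 1 higher, and FST+LIN28B called 1 lower. Hair cell markers summed to at most 12.3 TPM, a value of an FST library. Neuron markers summed to 5.6 to 9.77 TPM without LIN28B and 10.5 to 15.5 with it. The mesenchyme list summed to 811 to 828 TPM in control, 550 to 818 with FST, 853 to 995 with LIN28B and 509 to 782 with both transgenes. The LIN28B libraries thus lay above all others. Most of the sum was Dcn in each library, and no member of that list was called in the test among the 4 conditions. In bulk RNA, fewer cells of a type and less RNA per cell cannot be told apart, and the part of these cell type markers in the results below was not tested.

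With LIN28B alone, 3 ligand genes, a receptor gene and a phosphatase gene rose. Against control, 5 of the 41 genes were called, each of them higher, while 3.43% of all genes tested were called in either direction and 2.1% were called higher. The 5 were the ligands Fgf15, Fgf16 and Fgf20, the receptor Fgfr2 and the phosphatase Dusp9. The median log2 fold change was 0.51 over the 22 ligands, 0.13 over the 41 genes and -0.03 over all genes tested. The count was 3 without control replicate 2 or 3 or LIN28B replicate 1 or 2, 8 without FST replicate 3 and 10 without FST replicate 2, and Fgf15, Fgf16 and Dusp9 were called in each of these fits.

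With both transgenes, 3 of the 41 genes were called against control, again each of them higher, namely Fgfr2, Dusp9 and Dusp5. Over all genes tested, 1.26% were called in either direction and 0.793% higher. The median log2 fold change was 0.09 over the 41 genes, against -0.01 over all genes tested. Dusp9 alone was called without control replicate 2 or 3, and 7 of the 41 genes were called without FST replicate 2. FST+LIN28B and LIN28B were compared with the same control libraries, so the 2 lists of calls are not independent of each other.

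FST alone gave no call among the 41 genes (edgeR, 8 with an unadjusted p under 0.05), where 0.0213% of all genes tested were called. DESeq2 called Fgf3 and Fgf15 in this comparison, and limma on log2(TPM + 1) called none. FST+LIN28B against LIN28B likewise gave no call (edgeR, 14 with an unadjusted p under 0.05, 0.506% of all genes called), with 5 calls in DESeq2 and none in limma. Fgf3 passed in that comparison without control replicate 1 or FST replicate 3, and Spry4, Dusp4 and Fgf10 passed without FST replicate 2. FST+LIN28B against FST, which shares no library with LIN28B against control, gave 3 calls, each higher (Fgf15, Fgf16 and Dusp9), where 0.953% of all genes were called and 0.57% were called higher. Without FST replicate 2 this count was 5, and it was 0 in a fit of these 2 conditions alone.

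The interaction, the part of the double response that is not the sum of the single responses, was called for none of the 41 genes (edgeR, 2 with an unadjusted p under 0.05, none in DESeq2 or limma), where 0.00532% of all genes tested were called. The 2 were Fgf1 (-0.69, SE 0.30) and Fgf16 (-0.67, SE 0.29). Fgf1 changed by -0.54 with LIN28B alone and by -1.23 when LIN28B was added to FST. With 3 libraries per condition the test can miss such departures, so the lack of calls does not show that the effects add. Each transgene's effect was also averaged over the presence of the other, a pair of comparisons chosen after the values were seen. The average for LIN28B was called in 12 of the 41 genes, of which 9 rose and 3 fell, where 7.41% of all genes tested were called and 4.32% were called higher. The 12 were the 11 genes that differed among the conditions and Fgf14. The average for FST was called in 2 of the 41 genes, Fgf3 and Fgf15, both lower, where 0.724% of all genes were called and 0.41% were called lower. Fgf3 alone stayed called without control replicate 1 or 2, FST replicate 1, LIN28B replicate 1 or 2, or FST+LIN28B replicate 2 or 3 (count 1).

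**Figure D1:**
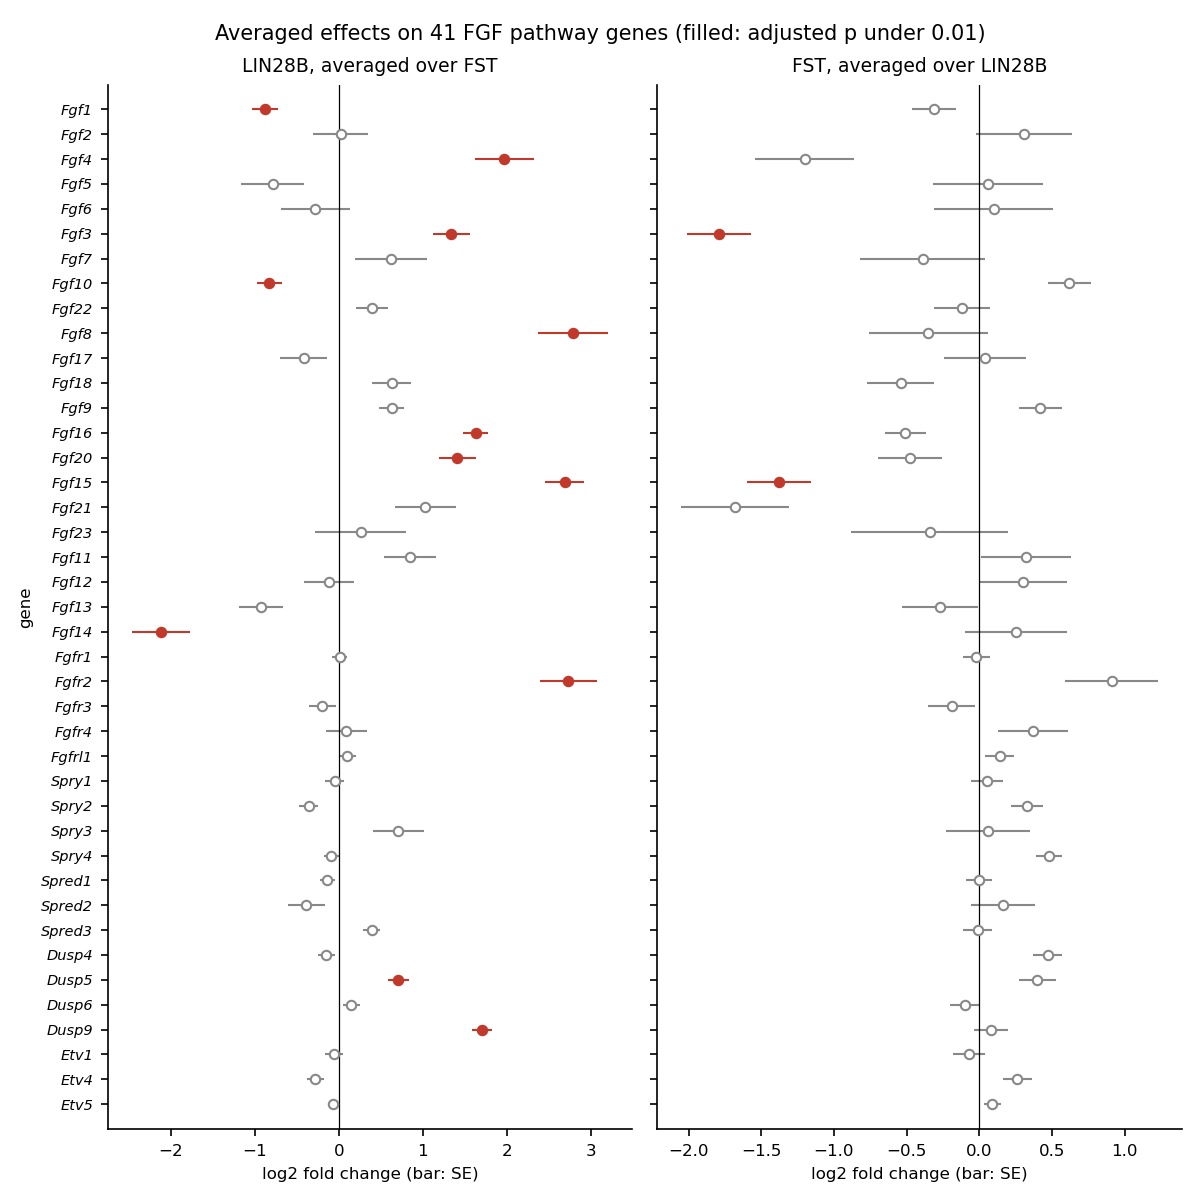
Averaged effect of LIN28B (left) and of FST (right) on each of the 41 genes, as log2 fold change on the horizontal axis with bars of 1 SE, from 12 libraries. Filled red points passed an adjusted p of 0.01. On the left 9 genes lie to the right of 0 and 3 to the left, and on the right the 2 filled points, Fgf3 and Fgf15, lie to the left of 0.

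Fgf3, Fgf4 and Fgf15 are neighbours on mouse chromosome 7, and each was called higher in the average for LIN28B. They lie within 62871 bases, all on the + strand, at positions 144838083 to 144844436 (Fgf3), 144847367 to 144865243 (Fgf4) and 144896531 to 144900953 (Fgf15) of GRCm38. By mean level each was highest in LIN28B and lowest in FST, while control was above FST+LIN28B for Fgf3 and below it for Fgf4 and Fgf15. Fgf3 encodes a ligand of the IIIb forms of the FGF receptors, Fgf4 a ligand known best from early embryo and limb, and Fgf15 the mouse counterpart of human FGF19, an endocrine ligand of bile acid metabolism that is also made in the embryonic brain and ear.

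Fgf3 was at 18.8, 10.8 and 8.16 TPM in control replicates 1, 2 and 3, 2.38, 3.31 and 4.56 with FST, 35.6, 33.7 and 31.0 with LIN28B and 10.9, 9.32 and 6.65 with both transgenes. Every FST library was below every control library and every LIN28B library above it, while control and FST+LIN28B overlapped. Its log2 fold change was 1.34 (SE 0.22) for LIN28B averaged over FST (edgeR adjusted p = 0.002) and -1.79 (SE 0.22) for FST averaged over LIN28B (adjusted p = 0.0019), and the interaction was -0.04 (SE 0.44). FST thus lowered Fgf3 by 1.77 (SE 0.32) on the log2 scale without LIN28B (adjusted p = 0.11) and by 1.81 (SE 0.31) with it (adjusted p = 0.016), values that did not pass on their own. The averaged effects of both transgenes on Fgf3 passed in every one of the 19 alternative fits.

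Fgf15 was at 3.89, 2.24 and 2.01 TPM in control, 0.822, 1.13 and 1.17 with FST, 19.6, 21.7 and 12.7 with LIN28B and 8.84, 4.65 and 6.10 with both transgenes. The 4 conditions did not overlap. Fgf15 rose by 2.71 (SE 0.32) with LIN28B alone (adjusted p = 0.00047) and by 2.67 (SE 0.32) when LIN28B was added to FST (adjusted p = 0.0016). The averaged effect of FST was -1.38 (SE 0.22, adjusted p = 0.0067), which lost its call in 11 of 19 alternative fits, with adjusted p up to 0.021. That call was lost without control replicate 1 or 2, FST replicate 1 or 2, LIN28B replicate 1 or 2, or FST+LIN28B replicate 2 or 3.

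Fgf4 was at 0.98, 0.636 and 0.385 TPM in control, 0.197, 0.208 and 0.528 with FST, 3.43, 3.55 and 2.74 with LIN28B and 1.47, 0.495 and 1.64 with both transgenes. The LIN28B libraries lay above all others, and the other conditions overlapped. The averaged effect of LIN28B was 1.97 (SE 0.35, adjusted p = 0.0027) and FST averaged over LIN28B was -1.20 (SE 0.34, adjusted p = 0.13).

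Genes next to the 3 ligands had smaller averaged fold changes. Within 500 kb on either side of the cluster, 9 of 11 protein-coding neighbours were tested, and none was called in either averaged comparison (edgeR, lowest adjusted p 0.012 for LIN28B and 0.029 for FST). Ano1 was called in the test among the 4 conditions (adjusted p = 0.0089), and no other neighbour was. Their log2 fold changes were -0.15 to 0.50 for LIN28B and -0.60 to 0.26 for FST. Ano1, a chloride channel gene upstream of Fgf3, had the lowest value for FST, -0.60 (SE 0.12), with 0.50 (SE 0.12) for LIN28B (adjusted p = 0.017). Ccnd1, the cyclin D1 gene beyond Fgf15, was at 0.46 (SE 0.11) for LIN28B (adjusted p = 0.012) and 0.26 (SE 0.10) for FST (adjusted p = 0.40). LTO1, which overlaps the end of Ccnd1 on the other strand, was at 0.00 (SE 0.05) for LIN28B. These neighbours were examined after the values of the 3 ligands were seen.

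**Figure D2:**
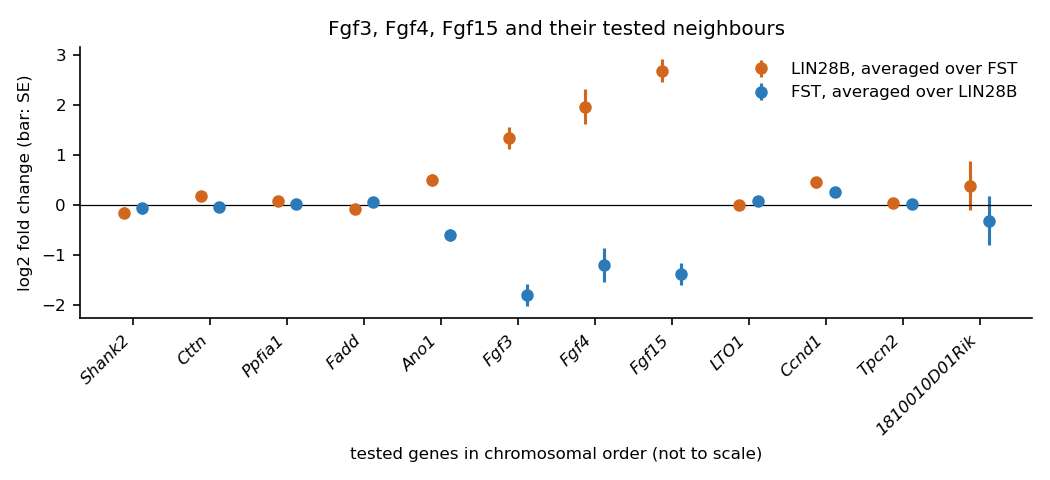
Averaged log2 fold changes (vertical axis, bars of 1 SE, 12 libraries) of Fgf3, Fgf4, Fgf15 and their 9 tested protein-coding neighbours, in chromosomal order and not to scale. Orange points are LIN28B and blue points FST. The 3 ligand genes have LIN28B values of 1.34 to 2.69 and FST values of -1.79 to -1.20, and the neighbours lie between -0.60 and 0.50.

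Fgf21, another endocrine ligand, on the same chromosome, was at 1.47, 0.801 and 0.873 TPM in control, 0.453, 0.372 and 0.535 with FST, 1.99, 5.10 and 2.35 with LIN28B and 1.12, 0.349 and 0.431 with both transgenes. Its LIN28B libraries were the highest, and FST and FST+LIN28B overlapped. Fgf21 passed no comparison (FST averaged over LIN28B -1.68, SE 0.37, adjusted p = 0.038). Fgf23, the third endocrine ligand, was at or below 0.292 TPM in every library.

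In the Fgf9 subfamily, Fgf16 and Fgf20 rose with LIN28B and Fgf9 was not called. Its members Fgf9, Fgf16 and Fgf20 are secreted ligands, and Fgf20 and Fgf9 act in the developing cochlea. Fgf16, on chromosome X at 105764279 to 105774939, was at 1.93, 1.54 and 1.42 TPM in control, 1.53, 1.22 and 1.43 with FST, 6.18, 7.02 and 5.97 with LIN28B and 3.56, 3.12 and 3.58 with both transgenes. The 6 libraries with the LIN28B transgene did not overlap the 6 without it, and LIN28B alone lay above FST+LIN28B. Fgf16 rose by 1.97 (SE 0.21) with LIN28B alone (adjusted p = 0.0003) and by 1.30 (SE 0.21) over FST in FST+LIN28B (adjusted p = 0.0069). The second value lost its call in 13 of 20 alternative fits, with adjusted p up to 0.12, and was kept among the fits that leave out a library only without FST replicate 2. FST+LIN28B against LIN28B was -0.85 (SE 0.20, adjusted p = 0.063).

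Fgf20, on chromosome 8 at 40279166 to 40308331, was at 2.09, 1.06 and 1.33 TPM in control, 1.57, 1.55 and 0.915 with FST, 5.21, 5.12 and 3.30 with LIN28B and 3.01, 1.71 and 3.34 with both transgenes. LIN28B libraries lay above all control and FST libraries, whereas FST+LIN28B replicate 2 lay within the control range. The rise with LIN28B alone was 1.62 (SE 0.32, adjusted p = 0.0082). That call was lost in 10 of 20 alternative fits, with adjusted p up to 0.048. These were length-rescaled counts, limma on log2(TPM + 1) and log2(TPM + 0.1), and the fits without any 1 of the control or LIN28B replicates or FST+LIN28B replicate 1. The LIN28B average was 1.41 (SE 0.22, adjusted p = 0.0013). Fgf9 was at 8.03, 5.62 and 7.78 TPM in control, 7.64, 9.07 and 9.01 with FST, 10.9, 11.1 and 6.32 with LIN28B and 11.8, 10.8 and 15.7 with both transgenes. All double transgenic libraries of Fgf9 were above all control and FST libraries, at a log2 fold change of 1.05 (SE 0.22) that did not pass (adjusted p = 0.02). For LIN28B the values of Fgf9 were 0.54 (SE 0.22, adjusted p = 0.16) against control and 0.63 (SE 0.15, adjusted p = 0.016) averaged over FST.

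Fgf8 encodes a ligand that inner hair cells make in the maturing cochlea. It was at 0.293, 0.191 and 0.294 TPM in control, 0.142, 0.423 and 0.0798 with FST, 2.15, 2.55 and 0.617 with LIN28B and 1.52, 1.22 and 1.84 with both transgenes. Every library with the LIN28B transgene was above every library without it, on 24 to 87 counts against 3 to 11. For LIN28B, the averaged effect was 2.79 (SE 0.42, adjusted p = 0.00092), a 6.92-fold difference. The test among the 4 conditions also passed (adjusted p = 0.0059), a call lost in 11 of 19 alternative fits, with adjusted p up to 0.02. The pairwise values of 2.62 (SE 0.58) for LIN28B and 2.44 (SE 0.57) for FST+LIN28B against control did not pass (adjusted p = 0.015 and 0.035). Of 8 hair cell markers, 7 were tested. In LIN28B averaged over FST, Pou4f3, Gfi1, Myo7a and Atoh1 were called higher, and no other tested marker had a positive value. Over all genes tested, 7.41% were called in that comparison and 4.32% were called higher. The part of these markers in the Fgf8 value was not tested. Fgf17 and Fgf18, the other ligands of this subfamily, were at 0.233 to 0.881 and 0.917 to 3.05 TPM and were not called.

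Fgf10, Fgf1 and Fgf14 were lower in the average for LIN28B. Fgf10, a ligand of the IIIb form of Fgfr2 and the ligand of highest mean level over the 12 libraries (38.9 TPM), was at 45.7, 34.4 and 43.4 TPM in control, 40.9, 95.0 and 41.5 with FST, 19.6, 22.8 and 20.8 with LIN28B and 32.1, 28.1 and 42.4 with both transgenes. The 3 LIN28B libraries lay below all 9 others, FST+LIN28B overlapped control, and FST replicate 2 stood above the rest. In the LIN28B libraries Fgf10 was below Fgf3. LIN28B averaged over FST was -0.83 (SE 0.15, adjusted p = 0.0031). That call was lost in limma on log2(TPM + 1) and log2(TPM + 0.1), and without control replicate 1 or LIN28B replicate 1 (adjusted p over all alternatives up to 0.023). LIN28B against control was -0.96 (SE 0.21, adjusted p = 0.016). Without FST replicate 1, 2 or 3 the latter comparison passed.

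Fgf1 encodes a ligand that binds every FGF receptor and has no classical secretion signal. It was at 4.87, 3.75 and 4.25 TPM in control, 2.98, 4.71 and 4.55 with FST, 3.42, 2.85 and 2.90 with LIN28B and 1.57, 1.61 and 2.47 with both transgenes. FST+LIN28B lay below all other conditions, and LIN28B overlapped FST but not control. LIN28B averaged over FST was -0.88 (SE 0.15, adjusted p = 0.0023). That call was lost in limma on log2(TPM + 1) and log2(TPM + 0.1), and without FST+LIN28B replicate 1 (adjusted p over all alternatives up to 0.012). FST+LIN28B against control was -1.20 (SE 0.22) at an adjusted p of 0.01, which did not pass as it was not under the threshold before rounding.

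Fgf14 is an FGF homologous factor, an intracellular protein that binds voltage-gated sodium channels and no FGF receptor. It was at 0.400, 0.253 and 0.507 TPM in control, 0.316, 0.519 and 0.367 with FST, 0.111, 0.0264 and 0.0973 with LIN28B and 0.0680, 0.120 and 0.129 with both transgenes. All 6 libraries with the LIN28B transgene were below all 6 without it, on 3 to 16 counts against 30 to 65. LIN28B averaged over FST was -2.12 (SE 0.35, adjusted p = 0.0018). Fgf11, Fgf12 and Fgf13, the other homologous factors, did not pass any comparison, with Fgf13 at -0.93 (SE 0.26, adjusted p = 0.03) for LIN28B averaged over FST.

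The remaining ligands were low. Of the 22 ligand genes, 2 had a mean of at least 10 TPM (Fgf10 and Fgf3) and 9 a mean under 1 TPM. Fgf2, the ligand given in the medium, was at 0.123 to 0.969 TPM, with the highest value in FST replicate 2. Fgf5, Fgf6 and Fgf7 stayed at or below 0.965 TPM and Fgf22 between 1.29 and 3.40 TPM, and none of these 5 was called.

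**Figure D3:**
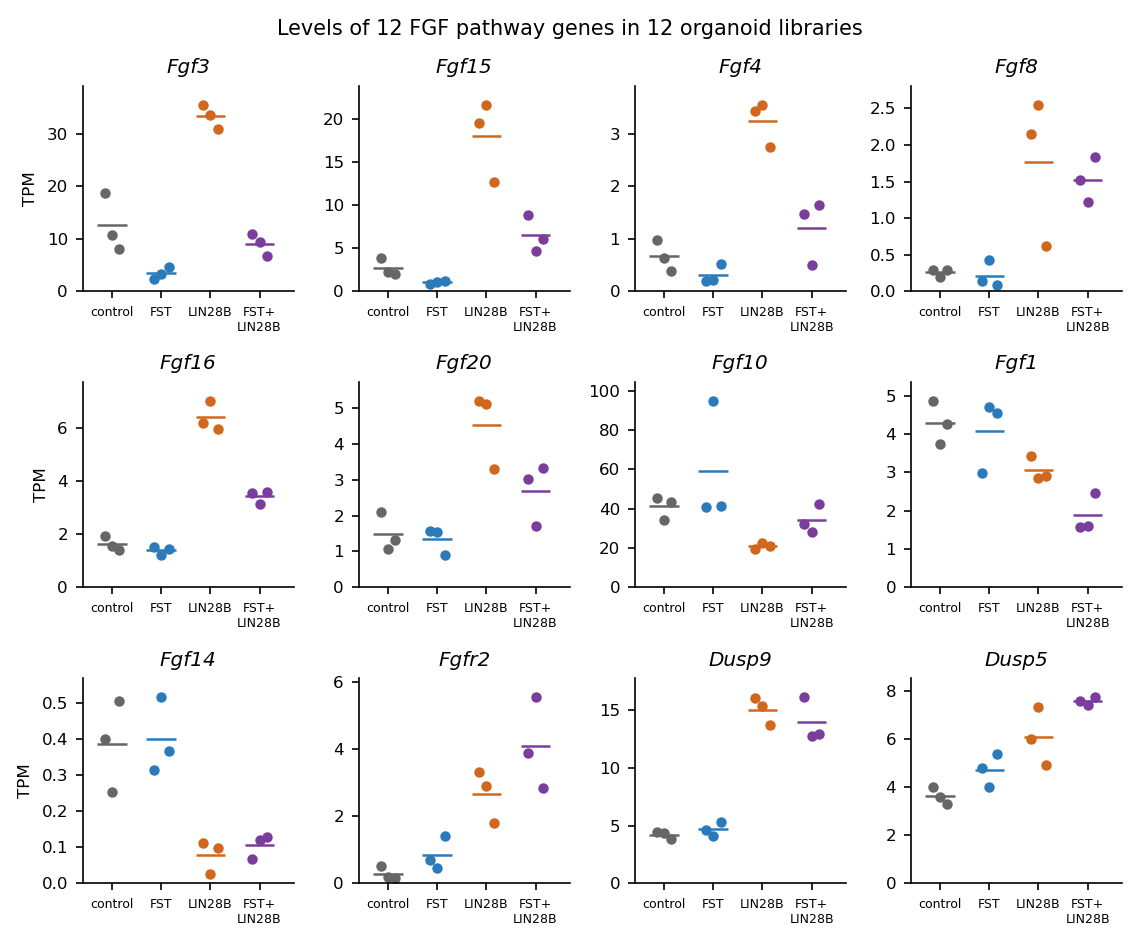
Levels in TPM (vertical axes, from 0) of the 12 genes called in the test among the 4 conditions or in an averaged comparison. Points are the 3 libraries of each condition in the order of replicates 1, 2 and 3, and lines are their means. Dusp9 sits at 12.8 to 16.2 TPM in all 6 libraries with the LIN28B transgene and at 3.82 to 5.36 in the 6 without it, and Fgf3 is lowest in FST and highest in LIN28B.

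Among the receptors, Fgfr2 changed and the others did not pass any comparison. Fgfr2, on chromosome 7, encodes the receptor of Fgf3 and Fgf10 in its epithelial IIIb form. It was at 0.511, 0.197 and 0.158 TPM in control, 0.691, 0.447 and 1.40 with FST, 3.31, 2.90 and 1.81 with LIN28B and 3.87, 5.56 and 2.83 with both transgenes. Every library with the LIN28B transgene was above every library without it, while FST replicate 2 lay within the control range. The counts behind these levels were 17 to 43 in control, 27 to 123 with FST, 165 to 306 with LIN28B and 296 to 404 with both transgenes.

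Fgfr2 rose by 3.15 (SE 0.49) with LIN28B (adjusted p = 0.0024) and by 3.64 (SE 0.50) with both transgenes (adjusted p = 0.0022). Both calls were lost without control replicate 2 or 3, and that for LIN28B also without LIN28B replicate 1 or 2, with adjusted p up to 0.018. LIN28B averaged over FST was 2.73 (SE 0.34, adjusted p = 0.00029), which passed in all 19 alternative fits. FST averaged over LIN28B was 0.91 (SE 0.32, adjusted p = 0.28).

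Fgfr1, the receptor with the highest level among those that carry a kinase, was at 53.7, 39.7 and 44.5 TPM in control, 37.8, 72.2 and 43.6 with FST, 40.2, 62.8 and 43 with LIN28B and 41.4, 42.3 and 41.2 with both transgenes. The conditions overlapped, and FST replicate 2 and LIN28B replicate 2 were the highest. Its log2 fold changes were -0.13 to 0.12 over the 5 pairwise comparisons. Fgfrl1, which binds FGF but lacks the kinase domain, was higher still, at 155, 177 and 149 TPM in control, 142, 156 and 158 with FST, 145, 145 and 163 with LIN28B and 195, 190 and 164 with both transgenes. The double transgenic libraries were above all FST and LIN28B libraries and overlapped control. Its FST+LIN28B value was 0.24 (SE 0.14) above control and did not pass (adjusted p = 0.49). Fgfr3, a marker of supporting cells in the cochlea, stayed at 0.956 to 1.91 TPM and Fgfr4 at 0.227 to 0.887 TPM. Even at its highest level of 5.56 TPM, Fgfr2 was thus below the lowest level of Fgfr1, 37.8 TPM.

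**Figure D4:**
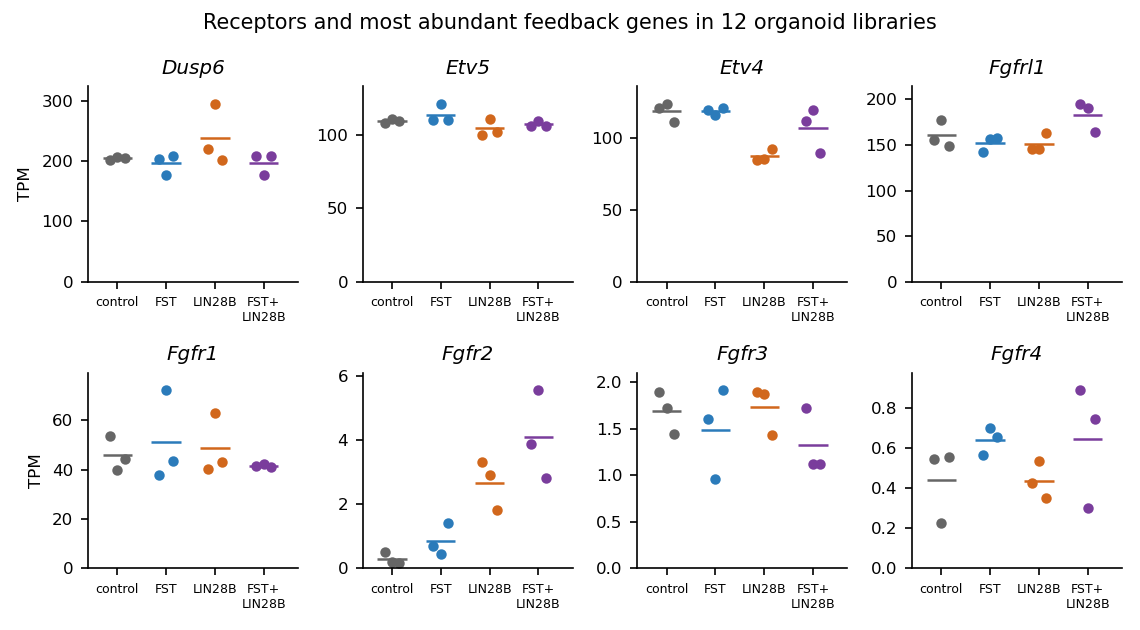
Levels in TPM (vertical axes, from 0) of the 3 most abundant feedback genes and of the receptors in the 12 libraries. Points are the 3 libraries of each condition and lines their means. Etv4 is lower in LIN28B (85.2 to 92.5 TPM) than in control (111 to 124). In TPM the conditions overlap for Dusp6, Etv5 and Fgfr1. Fgfr2 climbs from at most 0.511 TPM in control to at least 1.81 TPM in the LIN28B libraries.

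The form of the receptor sets which ligands it binds. Fgfr1, Fgfr2 and Fgfr3 each use one of a pair of alternative exons, IIIb or IIIc, for the last part of the third immunoglobulin domain, and for Fgfr2 the IIIb form binds Fgf3, Fgf10 and the related Fgf7 and Fgf22. The IIIb exon of Fgfr2 is shown because in most libraries the larger share of Fgfr2 TPM assigned to either form was on transcripts that hold it. It lies on the minus strand of chromosome 7 (GRCm38, chr7:130199758-130199905) and has 148 bases. Of the annotated transcripts, 10 hold it and lack the IIIc exon.
Fgfr2 IIIb exon: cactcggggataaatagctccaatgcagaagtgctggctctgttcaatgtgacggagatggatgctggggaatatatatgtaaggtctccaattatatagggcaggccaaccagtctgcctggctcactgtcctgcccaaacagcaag

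In 11 of the 12 libraries most Fgfr2 TPM assigned to either exon was on IIIb transcripts, and in FST replicate 3 the IIIb share was 38.6% (0.198 TPM against 0.315 for IIIc). IIIb transcripts summed to 0.0545 to 0.243 TPM in control, 0.196 to 0.311 with FST, 0.8 to 1.37 with LIN28B and 1.38 to 1.93 with both transgenes, and IIIc transcripts reached at most 0.141, 0.315, 0.451 and 0.576 TPM in the same order. The IIIb share of Fgfr2 was 87.7% ± 21.2 (SD, n = 3) in control, 72.3% ± 31.2 with FST, 85.6% ± 9.14 with LIN28B and 86.9% ± 12.2 with both transgenes. The control shares rest on the 17 to 43 Fgfr2 counts per library given above, and less for the transcripts with either exon, so a difference in share may not be detectable at this depth. None was found beyond the spread between libraries (exact permutation test over 369600 assignments, p = 0.81, adjusted p = 0.99 over 3 receptors). Fgfr1 was mostly IIIc, with a IIIb share of 7.28% to 7.93% by condition (exact permutation p = 0.99), and Fgfr3 was mixed, at 37.8% to 57.4% (exact permutation p = 0.55).

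The rise of Fgfr2 could not be placed on a single transcript. Of its 27 annotated transcripts, 6 passed the filter on low counts, and none was called in any comparison (edgeR over 69370 transcripts), where 0.112% of transcripts were called for LIN28B and 0.036% for FST+LIN28B against control. In each of those comparisons 4 of the 6 had an unadjusted p under 0.05. Fgfr2-211, a coding transcript with the IIIb exon, had the most counts in total over the 12 libraries, 20.6 summed over the control libraries, 34.6 over FST, 249 over LIN28B and 424 over FST+LIN28B. Fgfr2-226, annotated as a target of nonsense-mediated decay, had 13.7, 49.0, 194 and 181. Fgfr2-215, with the IIIc exon, had no count in control, 54.2 with FST, 71.4 with LIN28B and 90.5 with both transgenes, and exceeded Fgfr2-211 in FST. These 3 and another 13 had a mean share of at least 5% of Fgfr2 TPM in some condition. Of the 13, Fgfr2-202, Fgfr2-206, Fgfr2-208 and Fgfr2-210 hold the IIIb exon and had 0, 0, 19.9 and 2.42 counts in control and 32.3, 36.5, 21.6 and 117 in FST+LIN28B. Fgfr2-208 was thus at about the same count in both, with 53.7 in LIN28B and 0 in FST. Fgfr2-207, with the IIIc exon, had 15.4 counts in control and 5.89 in FST+LIN28B. The other 8 hold neither exon or both, with at most 54.1 counts in any condition. Kallisto divides reads that fit several transcripts, and the uncertainty of that division is not in these values.

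**Figure D5:**
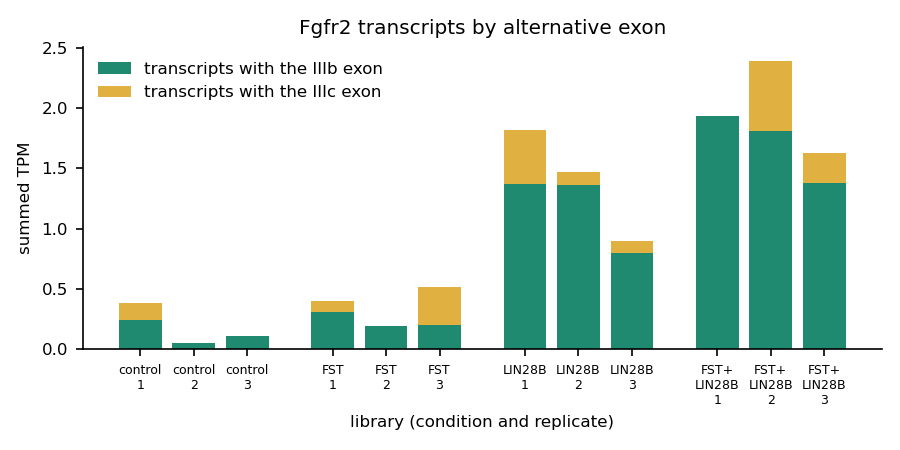
Summed TPM (vertical axis, stacked bars) of Fgfr2 transcripts with the IIIb exon (green) and with the IIIc exon (yellow) in each of the 12 libraries. The IIIb parts reach 0.8 to 1.93 TPM in the 6 libraries with the LIN28B transgene and at most 0.311 TPM in the others.

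The feedback genes were mostly abundant. In the test among the 4 conditions 2 of the 14 were called, against 5.03% of all genes tested, and the other 12 were called in no comparison. Of the 14, 11 had a mean of at least 10 TPM. Dusp6, the cytoplasmic ERK phosphatase that reports FGF signalling in many tissues, was at 202, 207 and 206 TPM in control, 203, 177 and 209 with FST, 220, 295 and 202 with LIN28B and 208, 177 and 208 with both transgenes. All 4 conditions overlapped, with LIN28B replicate 2 above the rest, and the log2 fold changes against control were 0.02 to 0.27 (SE 0.15).

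The PEA3 factors Etv4 and Etv5 were the next in level. Etv5 was at 108, 111 and 109 TPM in control, 110, 121 and 110 with FST, 100, 111 and 102 with LIN28B and 106, 109 and 106 with both transgenes. Etv4 was at 121, 124 and 111 TPM in control, 120, 116 and 121 with FST, 85.2, 85.5 and 92.5 with LIN28B and 112, 120 and 89.6 with both transgenes. Etv5 thus varied little, while Etv4 was lower in all LIN28B libraries than in all control libraries by a log2 fold change of -0.44 (SE 0.14) that did not pass (adjusted p = 0.079).

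Dusp9 was the feedback gene with the clearest difference. It encodes an ERK phosphatase of the cytoplasm and lies on chromosome X at 73639419 to 73643514. Dusp9 was at 4.42, 4.33 and 3.82 TPM in control, 4.64, 4.12 and 5.36 with FST, 16.1, 15.4 and 13.7 with LIN28B and 16.2, 12.8 and 13.0 with both transgenes. The 6 libraries with the LIN28B transgene did not overlap the 6 without it. Dusp9 rose by 1.85 (SE 0.17) with LIN28B (adjusted p = 0.00011), by 1.79 (SE 0.17) with both transgenes (adjusted p = 0.0003), and by 1.58 (SE 0.17) when LIN28B was added to FST (adjusted p = 0.00087). The first 2 calls held in all 20 alternative fits, and the third was lost when those 2 conditions alone were fitted (adjusted p = 0.027). FST averaged over LIN28B was 0.08 (SE 0.12) for this gene (adjusted p = 1).

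Dusp9 and Fgf16 are X-linked and the animals were of both sexes. The Y-linked gene Ddx3y was at 17.7 to 22.7 TPM in 2 control, 2 FST, 2 LIN28B and 1 FST+LIN28B libraries and at most at 0.241 TPM in the others, so each condition held libraries of both kinds.

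Dusp5, a nuclear ERK phosphatase on chromosome 19, was at 3.99, 3.6 and 3.29 TPM in control, 4.79, 4.02 and 5.39 with FST, 6.02, 7.34 and 4.91 with LIN28B and 7.60, 7.42 and 7.77 with both transgenes. In TPM, FST+LIN28B lay above all other conditions and every transgenic library was above every control library. In TMM-normalized CPM, FST replicate 2 (5.4) lay within the control range (4.9 to 5.94), so FST overlapped control on that scale. The difference between FST+LIN28B and control, 1.12 (SE 0.19), passed (adjusted p = 0.0063), but the call was lost in 9 of 20 alternative fits, with adjusted p up to 0.052. These were the replicate block and the fits without any 1 of the control or FST+LIN28B replicates, FST replicate 1 or LIN28B replicate 1. LIN28B averaged over FST was 0.71 (SE 0.13, adjusted p = 0.0033), lost without control replicate 2 or 3, LIN28B replicate 2 or FST+LIN28B replicate 1 (adjusted p up to 0.014).

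The other 12 feedback genes passed no comparison. The log2 fold changes of 11 of them lay between -0.53 and 0.65 in the 5 pairwise comparisons. Spry3, at 0.0798 to 0.416 TPM, reached 1.16 (SE 0.42) for LIN28B against control (adjusted p = 0.12). Spry1 and Spry2, inhibitors of receptor tyrosine kinase signalling upstream of ERK, were at 52.9 to 78.1 and 39.7 to 69.9 TPM, and Spred1 was at 40.5 to 61.8 TPM. Spry2 was lower in all LIN28B libraries (39.7 to 43.8 TPM) than in all control libraries (47.9 to 64.0), at -0.45 (SE 0.15, adjusted p = 0.089). Spry4 and Dusp4 were higher with FST averaged over LIN28B by 0.48 (SE 0.09) and 0.47 (SE 0.10), values that did not pass (adjusted p = 0.016 and 0.03) but did without FST replicate 2. Spred2, at 9.5 to 17.2 TPM in 11 libraries, was at 32.7 in FST replicate 2.

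LIN28B acts in part through let-7, so the let-7 seed and its matches in the 41 genes are shown. Per RefSeq (GRCm38.p6), 8 mature let-7 5p forms of the mouse share the seed GAGGUAG at bases 2 to 8, in capitals here, and differ only outside it.
let-7a-5p: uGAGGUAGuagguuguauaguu
let-7d-5p: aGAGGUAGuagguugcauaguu
let-7g-5p: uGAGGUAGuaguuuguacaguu
let-7i-5p: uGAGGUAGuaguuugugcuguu

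The 7 letters CTACCTC, the reverse complement of the seed, were searched on the transcript strand in the 3′ untranslated region of 1 coding transcript per gene, the one of highest mean TPM. They were found in 3 of 40 members scanned (7.5%), with a median region of 1120 bases, and in 7.77% of 20711 genes, with a median of 763 bases. The 3 were Fgf4, Fgf11 and Spred3, each with 1 match. Of these, Fgf4 was called in an averaged comparison, and the stretch around its match, with the match in capitals, lies at chr7:144863862-144863888 (GRCm38) on the plus strand.
Fgf4 match: ttctatccccatCTACCTCagagttcc
Fgf3, Fgf8, Fgf15, Fgf16, Fgf20, Fgfr2, Dusp5 and Dusp9, the other genes that were higher with LIN28B, held none of these letters in the region scanned. Fgf11 was at 0.85 (SE 0.31, adjusted p = 0.094) and Spred3 at 0.39 (SE 0.10, adjusted p = 0.025) for LIN28B averaged over FST.

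Genes that act around the ligands and receptors were taken as 6 lists of 77 genes, 75 of them tested. LIN28B against control called 6 of the 75, 5 higher and 1 lower, and FST+LIN28B against control called 3, 1 higher and 2 lower, against the 3.43% and 1.26% of all genes given above. FST+LIN28B against FST called 3, 2 higher and 1 lower, where 0.953% of all genes were called and 0.57% were called higher. FST against control and FST+LIN28B against LIN28B called none (edgeR, 2 and 10 with an unadjusted p under 0.05). The median log2 fold change of the 75 genes was 0.01 for LIN28B and 0.02 for FST+LIN28B.

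In the list of 14 co-receptors and FGF-binding proteins, the average for LIN28B was called higher in 2 and lower in 2 (13 of the 75 over all lists, 9 higher and 4 lower), where 7.41% of all genes were called and 4.32% were called higher. Flrt3, a transmembrane protein that binds FGF receptors, was at 9.34 to 9.98 TPM in control, 7.77 to 9.13 with FST, 20.3 to 25.9 with LIN28B and 14.6 to 21.9 with both transgenes, and rose by 1.27 (SE 0.14) with LIN28B (adjusted p = 0.00037) and 1.03 (SE 0.14) with both (adjusted p = 0.002). Fgfbp1, a secreted carrier that releases FGF from the matrix, was at 4.19 to 5.07, 3.27 to 4.34, 16.6 to 27.7 and 8.04 to 11.5 TPM in the same order of conditions, and rose by 2.13 (SE 0.24) with LIN28B (adjusted p = 0.00038). Libraries with the LIN28B transgene lay above those without it for both genes. Sdc3, a heparan sulfate proteoglycan, was at -1.31 (SE 0.22) in FST+LIN28B (adjusted p = 0.0062), and Sdc4 was at -1.02 (SE 0.19) in LIN28B (adjusted p = 0.0068).

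In the list of 12 genes for heparan sulfate synthesis and editing, 3 were higher in the average for LIN28B and none lower, against the same 7.41% and 4.32% of all genes. Ext1, a polymerase of the sugar chain, rose by 0.61 (SE 0.11) with LIN28B (adjusted p = 0.005). Sulf2, a sulfatase that trims the chain outside the cell, was called in the test among the 4 conditions and in LIN28B averaged over FST (1.12, SE 0.16, adjusted p = 0.00068). Of 14 other ERK response and feedback genes, 4 were higher and 1 was lower in that average, again against 7.41% of all genes called and 4.32% called higher. The lower gene was Il17rd, an inhibitor of FGF signalling (-0.30, SE 0.06, adjusted p = 0.0085), and the 4 were Dusp1 (0.85, SE 0.15, adjusted p = 0.0031), Dusp8 (1.60, SE 0.32, adjusted p = 0.0054), Epha2 and Etv3. Against control, Epha2 and Etv3 rose with LIN28B alone by 1.55 (SE 0.22, adjusted p = 0.0014) and 0.65 (SE 0.11, adjusted p = 0.0033). Among 13 genes of the chain from RAS to ERK only Ksr1, a scaffold of the kinases, was called among the 4 conditions, and no pairwise comparison called it. Of 12 genes of the EGF receptor family and its feedback, 10 were tested and Erbb4, the single call there, was lower in FST+LIN28B than in control (-1.78, SE 0.32, adjusted p = 0.0091). The 12 adaptors and docking proteins held no call in any comparison.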

How the data were processed

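Per the labels and the paper's methods, the authors pseudo-aligned stranded total RNA reads with kallisto 0.46.1 against mouse Ensembl v96 transcripts (GRCm38), and they deposited estimated counts and effective lengths for 118489 transcripts per library. The human transgenes are not mouse transcripts and were not analysed here. The strand setting is not given in the sources used here. TPM were computed here from the deposited estimated counts and effective lengths (length, in bases, as kallisto uses it). Transcripts were assigned to genes with GENCODE M21 (116816 matched, 1673 not, with 0.543% to 0.598% of counts), and counts were summed per gene and rounded. Genes were tested in edgeR 4.0.16 (quasi-likelihood, robust, TMM, filterByExpr with a minimum count of 10) in 1 fit of 12 libraries. The common biological coefficient of variation was 0.266. SE values were derived by dividing the unshrunk log2 fold change by the root of its F statistic.

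The 41 members, the gene lists and the tests were chosen with earlier results of these data known. The members described library by library were those called in any comparison, and the 3 of highest mean TPM among ligands, receptors and feedback genes. Fgf21, the uncalled genes given with a fold change and the neighbours of Fgf3 were added after their values were seen, as were the 2 averaged comparisons. Up to 3 called pathway genes per list, those of largest pairwise fold change, were to be named, and Sdc4, Dusp1, Dusp8 and Il17rd were added after their values were seen. Alternatives were RLE size factors, no filter, length-rescaled counts, a replicate block, the 2 conditions alone, an adjusted p of 0.05, limma 3.58.1 on log2(TPM + 1) and log2(TPM + 0.1), DESeq2 1.42.0, and each library left out. The fit was tested on simulated data. Software was R 4.3.3, Python 3.11.15 and matplotlib 3.10.9.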

Additional observations from a re-analysis of the deposited data

How the results depend on the processing

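Counts of called genes among the 41 depended on the threshold, the tool and single libraries. At an adjusted p under 0.05 the counts were 8 for FST+LIN28B, 11 for LIN28B, 3 for FST+LIN28B against LIN28B, 7 for FST+LIN28B against FST and 5 for FST averaged over LIN28B (3, 5, 0, 3 and 2 at 0.01). At 0.05 these comparisons called 3.89%, 8.41%, 1.62%, 3.29% and 1.93% of all genes tested, in the same order. With only the 2 conditions compared the first 4 counts were 5, 8, 1 and 0. DESeq2 gave 9, 11, 5, 11 and 6 in the same order, 2 for FST against control, and 17 in the test among the 4 conditions (11 with edgeR). That test gave 6 with limma at a pseudocount of 1 TPM and 6 at 0.1 TPM, and FST averaged over LIN28B gave 1 with each. Leaving out 1 library at a time gave 1 to 7 for FST+LIN28B, 3 to 10 for LIN28B, 0 to 3 for FST+LIN28B against LIN28B, 2 to 5 for FST+LIN28B against FST, 5 to 16 among the 4 conditions, 1 to 3 for FST averaged over LIN28B, and 10 to 14 for LIN28B averaged over FST (12 with all libraries). One Fgfr2 transcript was called for LIN28B averaged over FST without FST replicate 3, and 0 otherwise. The causes were not tested. Apart from the main fit and its 0.05 threshold, the share of all genes called under a setting is not given in this report. Counts from those settings thus show only how the calls among the 41 genes varied. Fold changes were recomputed only for members with an adjusted p under 0.05 in the main fit. None of these changed sign under any alternative, an outcome that the selection made likely. No scaling moved the median log2 fold change of all genes beyond -0.05 to 0.04.

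Whether replicate numbers pair the libraries is not known from the sources used here. Same-numbered libraries of different conditions had correlations of -0.327 to 0.185 over 18 pairs, computed on deviations from the condition mean. Differently numbered libraries were not compared in this way, so these values cannot decide it. The main fit used no pairing. With a replicate block the counts were 7 among the 4 conditions, 1 for FST averaged over LIN28B, 2 for FST+LIN28B, 5 for LIN28B and 2 for FST+LIN28B against FST. The smallest counts limit Fgf8, Fgf14 and Fgfr2 in the low conditions.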
